A study of Homo sapiens with 4 samples.

Results

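The genes described here encode the RNAs and the particle-specific proteins of the minor spliceosome, which are RNU11, RNU12, RNU4ATAC and RNU6ATAC for its small nuclear RNAs (snRNAs) and RNPC3, PDCD7, SNRNP25, SNRNP35, SNRNP48 and ZMAT5 for the proteins of the U11/U12 particle. A gene was measured where a row of the expression table carried its symbol and no other, and 9 of the 10 genes had such a row, and no more than 1, among 67539 rows in all. RNPC3 had none, since its only row carries 3 symbols, and it has no value here. The set was chosen by the array signals of RNU11 and RNU12, which were lower in this very comparison, so the values of all 9 measured genes are given as a description, with no test.

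Expression was measured on arrays in the Ewing sarcoma line TC-71, an established cell line. Replicates C and D, labelled exoTCsiCD99 and here called TC-71 + TC-CD99neg EXOs, hold cells incubated for a day with exosomes purified from the medium of TC-71 cells silenced for CD99, at 10 µg per 5000 cells in serum-free conditions. Replicates A and B, of untreated TC-71, hold the same parental line without exosomes. All recipient cells are unmodified TC-71, so the silencing belongs to the donor cells alone. No array holds cells given exosomes of CD99-expressing donors, so addition of exosomes and CD99 loss in their donors cannot be told apart here. Whether the untreated cells were also kept without serum is not given in the sources used here.

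Most human introns are removed by the major spliceosome, built on the U1, U2, U4, U5 and U6 snRNAs. A small class, the U12-type introns, is removed by the minor spliceosome. There the U11/U12 particle takes the place of U1 and U2 and recognises the 5′ splice site and the branch point together, U4atac and U6atac take the place of U4 and U6, and U5 is shared. The U11, U12 and U4atac genes are transcribed by RNA polymerase II, and the U6atac gene by RNA polymerase III. Inherited variants in several of these genes cause growth and neurodevelopmental disorders.

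RNU11 and RNU12, by which the set was chosen, were lower in TC-71 + TC-CD99neg EXOs, at 45.4% and 43.2% of the signal in untreated TC-71. They were also the only members called, which takes a fold of 1.5 or more and an adjusted p of 0.05 or less from limma, a linear model with moderated variances over all rows. For comparison, 1.04% of all rows were called lower and 2.59% were called in either direction, 1043 rows higher and 703 lower (865 higher and 867 lower after median centring of the arrays). With no fold limit 9.7% of all rows passed on adjusted p. Since these rows chose the set, nothing is read from that contrast. The values are log2 array signals, of bulk RNA, in which fewer cells that carry an RNA and less of it per cell cannot be told apart. Signals of different probes are not set against each other. The rows of the 4 snRNAs bear identifiers of the kind used for an exon part and those of the 5 measured proteins of the kind used for an exon junction, whereas the study describes whole transcript clusters. Which of these a value covers is not settled, here and for every gene below.

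RNU11, whose RNA pairs with the 5′ splice site of U12-type introns, had log2 signals of 9.17 and 9.22 in TC-71 + TC-CD99neg EXOs and 10.32 and 10.34 in untreated TC-71. The groups lay far apart, and each pair of arrays lay close together. The means were 9.19 ± 0.03 and 10.33 ± 0.02 (SD, n = 2 arrays each), a difference of -1.14 on the log2 scale (standard error 0.04), or 45.4% of the untreated signal.

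RNU12, whose RNA pairs with the branch point sequence, had log2 signals of 7.30 and 7.34 in TC-71 + TC-CD99neg EXOs against 8.49 and 8.57 in untreated TC-71. Again both treated arrays were below both untreated ones. The difference was -1.21 (standard error 0.05), with means of 7.32 ± 0.03 and 8.53 ± 0.06 (SD, n = 2 arrays each), so that both RNAs of the U11/U12 particle were lower by a like amount. Under 12 alternatives of variance model, scale between arrays, rows used and arrays left out, the difference stayed between -1.18 and -1.10 for RNU11 and between -1.25 and -1.17 for RNU12. The variance model and the choice of rows leave the difference of a gene unchanged. The ranges over the alternatives, here and below, therefore come only from scaling and from arrays left out. Since RNU11 and RNU12 chose the set, their ranges are a description.

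RNU4ATAC and RNU6ATAC encode the partner RNAs of the tri-snRNP. RNU4ATAC, whose RNA delivers U6atac in paired form, had log2 signals of 12.10 and 12.11 in TC-71 + TC-CD99neg EXOs against 11.87 and 11.93 in untreated TC-71. It was slightly higher on both treated arrays, at 115% of the untreated signal, with a log2 difference of 0.21 (standard error 0.04), which is below the fold limit. The difference was above 0 in all 12 alternatives and ranged between 0.16 and 0.32.

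RNU6ATAC, whose RNA replaces U11 at the 5′ splice site and takes part in catalysis, had log2 signals of 7.58 and 7.80 in TC-71 + TC-CD99neg EXOs against 8.11 and 8.12 in untreated TC-71. Both treated arrays were lower, with a log2 difference of -0.42 (standard error 0.08), or 74.7% of the untreated signal. Its treated arrays were 0.217 apart, the widest gap within a group for any of the 9 genes, and the difference was -0.31 to -0.53 when single arrays were left out. The median log2 difference over the 4 snRNAs was -0.78, a value that RNU11 and RNU12, by which the set was chosen, carry. The 4 differences ran between -1.21 and 0.21, and the median over all rows was 0.01.

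**Figure D1:**
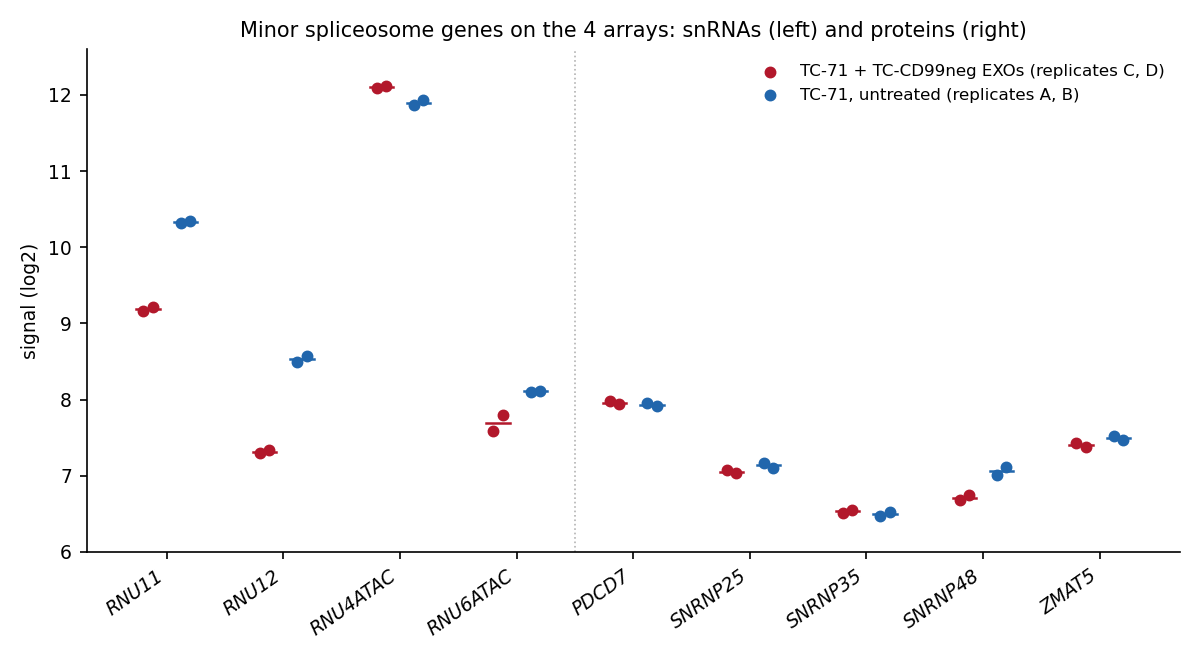
Log2 array signal of the 9 measured minor spliceosome genes, with a point per array and a short line at the group mean, TC-71 + TC-CD99neg EXOs in red and untreated TC-71 in blue. RNU11 and RNU12 are lower on both treated arrays by 1.14 and 1.21 on the log2 scale, RNU4ATAC is slightly higher, and PDCD7 and SNRNP35 overlap between the groups.

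The measured protein-coding members had log2 differences between -0.34 and 0.04. SNRNP48 encodes a zinc finger protein that contacts the 5′ splice site of U12-type introns, and its pre-mRNA carries a splicing enhancer bound by the U11 particle itself. It had log2 signals of 6.68 and 6.75 in TC-71 + TC-CD99neg EXOs against 7.00 and 7.11 in untreated TC-71. Both treated arrays were lower, with a log2 difference of -0.34 (standard error 0.06), or 78.7% of the untreated signal, and it stayed between -0.40 and -0.29 under the alternatives. PDCD7, the scaffold protein that bridges the U11 and U12 ends of the particle, had 7.98 and 7.94 in TC-71 + TC-CD99neg EXOs against 7.95 and 7.92 in untreated TC-71. Its groups overlapped, with a log2 difference of 0.02 (standard error 0.04).

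The sequences at the starts of these 2 genes are given because they are the measured protein members with the lowest difference and with the difference nearest 0. Each is the 300-base promoter window of RefSeq (GRCh38.p14), where 5 of the 10 genes have an entry, and capitals mark a match to CCAAT or CGGAAGT on either strand.
SNRNP48, chr6:7589948-7590247, plus strand: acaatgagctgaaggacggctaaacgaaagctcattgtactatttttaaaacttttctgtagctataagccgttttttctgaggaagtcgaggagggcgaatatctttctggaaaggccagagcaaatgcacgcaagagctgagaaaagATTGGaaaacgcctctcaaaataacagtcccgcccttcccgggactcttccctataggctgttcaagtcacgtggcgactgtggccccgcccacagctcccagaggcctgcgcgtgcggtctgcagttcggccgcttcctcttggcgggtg
PDCD7, chr15:65133759-65134058, minus strand: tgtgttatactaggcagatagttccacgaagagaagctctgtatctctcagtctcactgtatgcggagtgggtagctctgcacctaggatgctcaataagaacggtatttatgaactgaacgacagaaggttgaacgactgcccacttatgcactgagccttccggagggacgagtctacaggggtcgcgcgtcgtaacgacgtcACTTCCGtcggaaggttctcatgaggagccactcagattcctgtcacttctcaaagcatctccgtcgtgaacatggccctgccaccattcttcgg
The SNRNP48 window holds 1 CCAAT on the opposite strand, a match that 34.6% of 35116 windows of the same length hold, and the PDCD7 window holds 1 CGGAAGT on the opposite strand, which 6.83% hold. Neither holds TATAAA, which 11.5% hold, and their GC contents of 52.3% and 51.7% are below the median of 58.7%. A match here is a description of the letters, not of a bound site.

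SNRNP25, a ubiquitin-like fold protein of the U11 particle, had log2 signals of 7.07 and 7.04 in TC-71 + TC-CD99neg EXOs against 7.17 and 7.11 in untreated TC-71. ZMAT5, a zinc finger protein of the U11/U12 particle, had 7.43 and 7.38 in TC-71 + TC-CD99neg EXOs against 7.52 and 7.47 in untreated TC-71. Both were marginally lower on both treated arrays, with log2 differences of -0.08 and -0.09 (standard error 0.04 each). SNRNP35, a relative of SNRNP70, a protein of the U1 particle, had 6.51 and 6.55 in TC-71 + TC-CD99neg EXOs against 6.47 and 6.52 in untreated TC-71, which overlapped, with a difference of 0.04 (standard error 0.04). SNRNP35 and PDCD7 were each lower in 2 and higher in 10 of the 12 alternatives, so their direction is not settled.

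The median log2 difference over the 5 protein members was -0.08, and none was called. The 2 arrays of each group did not overlap for 7 of the 9 genes, 6 of them lower and 1 higher in TC-71 + TC-CD99neg EXOs. The same held for 47.9% of all rows, with 19.9% of all rows lower, so this count says little about any single gene.

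**Figure D2:**
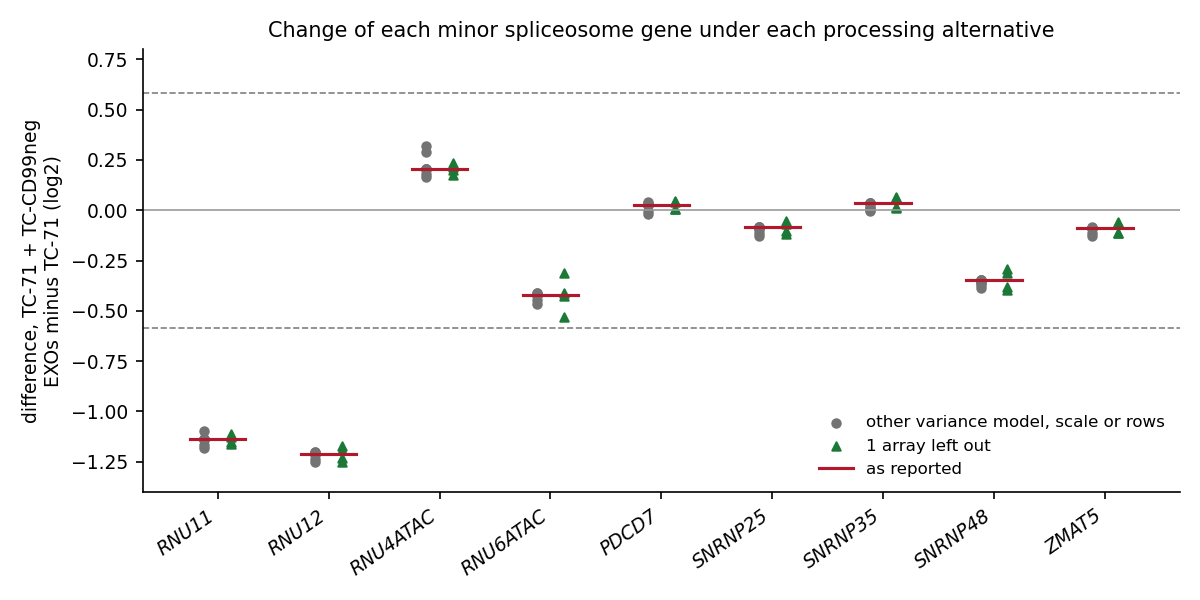
Log2 difference (TC-71 + TC-CD99neg EXOs minus untreated TC-71) of each gene as reported (red line), under other variance models, scales or row choices (grey points) and with 1 array left out (green triangles). Dashed lines stand at a fold of 1.5; RNU11 and RNU12 stay between -1.25 and -1.10, and PDCD7 and SNRNP35 lie on both sides of 0.

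Other factors of the minor spliceosome were next compared, from here on with limma and Benjamini-Hochberg adjustment over all rows. Of 13 listed factors, which include the U12-type splicing factor ZRSR2 and the RNA helicase DHX15, 10 had a row, and 0 were called in either direction by limma (5 had an unadjusted p under 0.05, 4 of them lower). Over all rows 22.2% had an unadjusted p under 0.05, and 9.5% were also lower, which is the background for such counts here and below. None of the 10 passed on adjusted p alone. By that measure 5.42% of all rows were higher and 4.28% lower, the background for such counts below. Their median difference was -0.08. DHX15 had log2 signals of 8.56 and 8.61 in TC-71 + TC-CD99neg EXOs and 8.82 and 9.01 in untreated TC-71, a difference of -0.33 (adjusted p = 0.0686 from limma). ZCRB1, a zinc finger and RNA-binding protein of the U11/U12 particle, had 9.13 and 9.26 in TC-71 + TC-CD99neg EXOs and 9.38 and 9.49 in untreated TC-71, a difference of -0.24 (adjusted p = 0.120 from limma). Neither reached the threshold.

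The snRNAs of the major spliceosome were taken as the closest counterpart. Of 32 listed genes, 9 had a row of their own and 0 were called by limma, with a median difference of -0.09, and 3 had an unadjusted p under 0.05, all lower, of which 2 also passed on adjusted p alone. The 9 are genes for U4, U5 and U6 and the U1 variant RNVU1-1, on a row the array names RNU1-10P. No U2 gene was measured, and U1 only through that variant, so the RNAs whose place U11 and U12 take are hardly covered. RNU6-1, a gene for the U6 RNA, had log2 signals of 9.97 and 10.11 in TC-71 + TC-CD99neg EXOs and 10.55 and 10.69 in untreated TC-71, a difference of -0.58 (adjusted p = 0.0174 from limma), just inside the fold limit, on 2 rows of identical values. It was called lower after median centring, after centring on reference genes and after a further quantile normalization, but not after cyclic loess. Without replicate D, which leaves 1 treated array, its difference was -0.65. RNU5A-1, a gene for the U5 RNA that both spliceosomes use, had a difference of -0.21 (adjusted p = 0.05 from limma), with 9.31 and 9.33 in TC-71 + TC-CD99neg EXOs and 9.50 and 9.56 in untreated TC-71. These genes have many near-identical copies, between which array probes may not separate.

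Rows named for copies of the minor snRNAs and for the wider snRNA families were set beside them. Among 7 rows named for copies of the minor snRNAs, 0 were called by limma (2 had an unadjusted p under 0.05, both lower). The lowest was RNU12-2P, a pseudogene of RNU12, with log2 signals of 6.38 and 6.28 in TC-71 + TC-CD99neg EXOs and 6.77 and 6.83 in untreated TC-71, a difference of -0.47 (adjusted p = 0.0143 from limma). The probes of a copy may also bind the RNA of its parent gene, and their part in this value was not tested. The other 6 copies are those of RNU4ATAC and RNU6ATAC, with differences between -0.20 and 0.09.

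Of 174 rows in the RNU1, RNU2, RNU4, RNU5, RNU6 and RNU7 families, most of them pseudogenes, 7 were called higher and 0 lower by limma, against 4 higher and 3 lower after median centring, 5 and 2 after centring on reference genes, 4 and 2 after a further quantile normalization and none after cyclic loess. At an unadjusted p under 0.05, 28 were higher and 15 lower, and on adjusted p alone 13 were higher and 7 lower. The 28 were 25 rows of RNU7 and 1 each of RNU4, RNU5 and RNU6. The 15 were 7 rows of RNU6, 5 of RNU1, 2 of RNU5 and 1 of RNU4. On adjusted p alone RNU7 held 11 of the higher rows and 0 of the lower ones, and RNU6 held 1 and 6. The shares of all rows by that measure were 5.42% higher and 4.28% lower, and 1.54% of all rows were called higher and 1.04% lower. The 72 RNU7 rows had a median log2 level of 4.70, where the lowest values on the arrays were 4.27 to 4.31. The 7 called higher were 5 rows of RNU7, the family of the histone pre-mRNA processing RNA, 1 of RNU6 and 1 of RNU4. The range was -0.58 for RNU6-1 to 0.95 for RNU6-82.

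**Figure D3:**
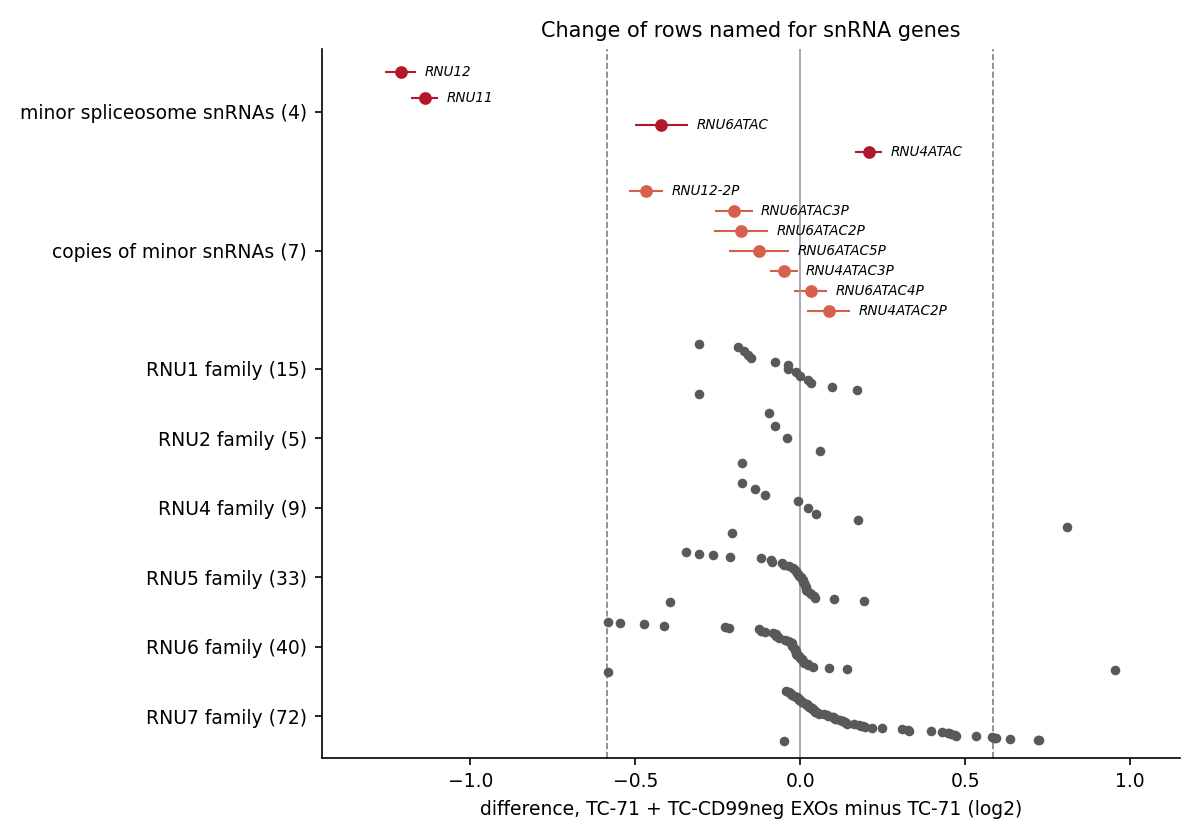
Log2 difference (TC-71 + TC-CD99neg EXOs minus untreated TC-71) of the 4 minor spliceosome snRNAs, of 7 rows named for their copies (both with the standard error) and of 174 rows in 6 snRNA families. Dashed lines stand at a fold of 1.5. The family rows lie between -0.58 for RNU6-1 and 0.95 for RNU6-82.

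Other short noncoding RNAs that share promoter elements with snRNA genes gave 1 call among 11 with a row, of 14 listed, and a median difference of -0.09. On adjusted p alone 2 were higher and 1 lower. VTRNA2-1, a vault RNA-related transcript, was higher, with log2 signals of 5.90 and 5.69 in TC-71 + TC-CD99neg EXOs and 5.25 and 5.15 in untreated TC-71. Its difference was 0.59 (adjusted p = 0.0236 from limma), and the call was lost under all 4 other scalings and without replicate A, B or C (0.49 without replicate C, 0.54 without B and 0.64 without A). RN7SK and RMRP, the RNA partners of P-TEFb and of RNase MRP, had differences of -0.07 and -0.09.

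Genes for proteins shared by both spliceosomes, or particular to the major one, gave no calls. Of 13 measured U1 and U2 snRNP proteins, 0 were called by limma, with 4 at an unadjusted p under 0.05, 1 higher and 2 lower on adjusted p alone, and a median difference of -0.06. SNRPA1, the U2 A′ protein, had log2 signals of 8.81 and 8.88 in TC-71 + TC-CD99neg EXOs and 9.36 and 9.48 in untreated TC-71, a difference of -0.58 (adjusted p = 0.0120 from limma). SF3A2, a U2 snRNP protein of the SF3a complex, had 10.58 and 10.48 in TC-71 + TC-CD99neg EXOs and 9.96 and 10.01 in untreated TC-71, a difference of 0.55 (adjusted p = 0.0109). Both lay just inside the fold limit and opposite in direction. SNRPA1 passed it after median centring and centring on reference genes, and SF3A2 after cyclic loess.

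Of 14 measured Sm and SF3b proteins, which the U11/U12 particle also contains, 0 were called by limma, with 9 at an unadjusted p under 0.05, 5 of them lower, and 1 higher and 1 lower on adjusted p alone. The median was -0.01. SF3B4 had a difference of 0.57 (adjusted p = 0.0187 from limma), with 9.12 and 8.97 in TC-71 + TC-CD99neg EXOs and 8.41 and 8.54 in untreated TC-71, and it was called higher after cyclic loess and after a further quantile normalization. SF3B1, the largest SF3b protein and a contact of the branch point, had a difference of -0.38 (adjusted p = 0.0601). Of 22 measured tri-snRNP and LSm proteins, 0 were called by limma, with 10 at an unadjusted p under 0.05, 7 of them lower, 2 higher and 4 lower on adjusted p alone, and a median of -0.00. PPIH, a cyclophilin of the tri-snRNP, had a difference of 0.40 (adjusted p = 0.0185), and DDX23, its RNA helicase, a difference of -0.39 (adjusted p = 0.0127).

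The making of snRNAs was then followed by step, of which transcription came first. Of 19 measured genes listed for snRNA gene transcription, 0 were called by limma, with 9 at an unadjusted p under 0.05, 8 of them lower, and a median of -0.14. On adjusted p alone 1 was higher and 4 were lower. The list is broad, and COIL and MEPCE, which had its largest changes, have the other roles given here. COIL, the coilin of Cajal bodies, had log2 signals of 7.32 and 7.50 in TC-71 + TC-CD99neg EXOs and 7.88 and 8.04 in untreated TC-71, a difference of -0.55 (adjusted p = 0.0311 from limma), and it was called lower after median centring. MEPCE, which caps and stabilises RN7SK, had a difference of 0.45 (adjusted p = 0.01). The Integrator complex forms the 3′ end of snRNAs made by RNA polymerase II. Of 18 measured genes listed for it, some of them not INTS genes, 0 were called by limma. At an unadjusted p under 0.05 from limma there were 9, 7 of them lower, and the median was -0.05. On adjusted p alone 2 were higher and 6 lower. INTS13 had a difference of -0.47 (adjusted p = 0.0280) and INTS8 of -0.41 (adjusted p = 0.0527).

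Export, assembly and recycling of snRNPs came next, with 1 call by the rows that represent the genes. Over all rows 1.04% were called lower and 2.59% in either direction, so this count is given as a description. Of 26 measured genes, PHAX was called lower and none higher, 17 had an unadjusted p under 0.05, 15 of them lower, and the median was -0.16. On adjusted p alone 3 were lower and 0 higher. PHAX is the adaptor that carries newly made snRNAs of RNA polymerase II out of the nucleus. It had log2 signals of 7.14 and 7.26 in TC-71 + TC-CD99neg EXOs and 7.76 and 7.87 in untreated TC-71, a difference of -0.62 (standard error 0.07, adjusted p = 0.0129 from limma). The call was lost without replicate B or replicate C, with a difference of -0.56 in both cases. GEMIN7, a protein of the SMN complex, had a difference of -0.41 (adjusted p = 0.0447), and SMN1 and SMN2 had no row of their own. SART3, a recycling factor for U6 and U6atac, had rows that disagreed, with -0.10 (adjusted p = 0.304) for the brighter row and 0.63 (adjusted p = 0.0157 from limma) for the other. The dimmer row passed both limits for a call, higher, but does not represent the gene in the counts above.

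**Figure D4:**
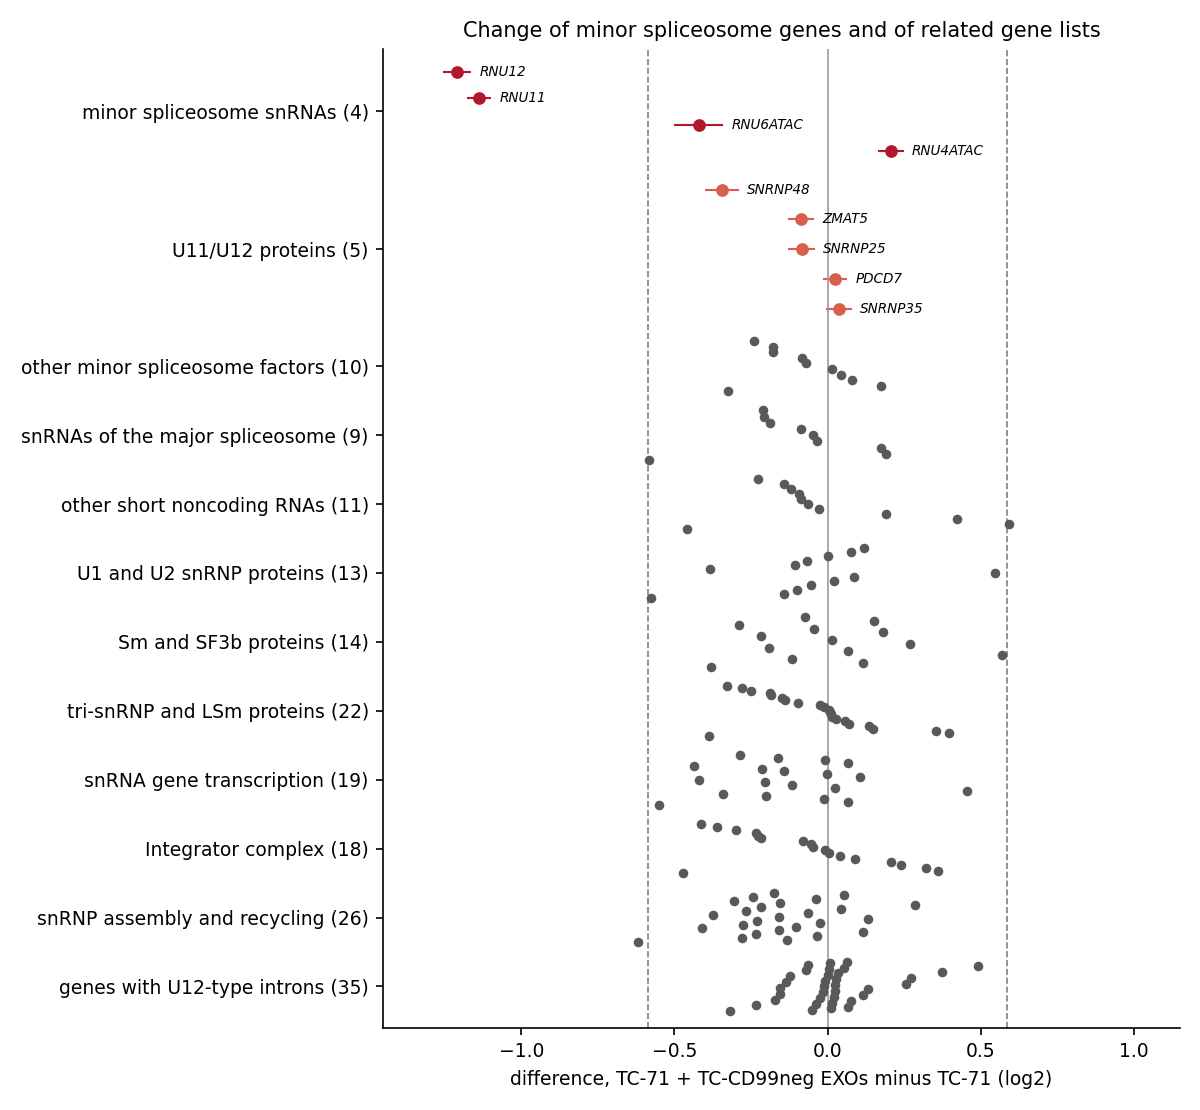
Log2 difference (TC-71 + TC-CD99neg EXOs minus untreated TC-71) of the minor spliceosome genes (with the standard error) and of each measured gene in 10 related lists, with the number of genes in brackets. Dashed lines stand at a fold of 1.5. RNU11 and RNU12, by which the set was chosen, are at -1.14 and -1.21, and PHAX in the assembly list and VTRNA2-1 among the short noncoding RNAs lie just outside the lines.

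Genes of families known to carry U12-type introns were examined by the same kind of row, which was not read as a measure of intron retention. The list was drawn up by family, so it does not establish such an intron in each gene. Of 42 listed genes 35 had a row, 0 were called by limma (9 had an unadjusted p under 0.05, 4 of them lower), and the median difference was 0.01, as over all rows. SCN8A, a voltage-gated sodium channel, had log2 signals of 6.06 and 6.13 in TC-71 + TC-CD99neg EXOs and 5.56 and 5.64 in untreated TC-71, a difference of 0.49 (adjusted p = 0.0122 from limma). E2F4, a transcription factor of the E2F family, had 9.060 and 9.003 in TC-71 + TC-CD99neg EXOs and 8.645 and 8.674 in untreated TC-71, a difference of 0.37 (adjusted p = 0.0144). On adjusted p alone, with no fold limit, 4 of these genes were higher and 0 lower, beside 5.42% and 4.28% of all rows.

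The genes beside the 4 snRNA genes were compared because the array is not known to separate overlapping transcripts. RNU11 overlaps TAF12-DT, which had no row of its own, and lies next to TAF12, a subunit of the TFIID transcription factor, and to GMEB1. TAF12 had log2 signals of 6.48 and 6.59 in TC-71 + TC-CD99neg EXOs and 6.99 and 6.99 in untreated TC-71, a difference of -0.46 (adjusted p = 0.0142 from limma), and GMEB1 a difference of -0.05 (adjusted p = 0.587). The parts of TAF12 and TAF12-DT in the RNU11 value were not tested. RNU12 lies between POLDIP3 and CYB5R3, which had differences of 0.28 (adjusted p = 0.0339) and 0.43 (adjusted p = 0.0178), against -1.21 for RNU12 itself. RNU4ATAC lies within CLASP1, with a difference of 0.02 (adjusted p = 0.937), and also overlaps CLASP1-AS1, which had no row of its own. RNU6ATAC overlaps LOC124902297, which had no row of its own, and lies next to WDR5, with 0.04 (adjusted p = 0.832). None of the neighbours with a row was called.

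The rows most like RNU11 and RNU12 were sought among 23374 rows with 1 symbol, by the root mean square distance of their centred log2 values over the 4 arrays from the mean of both genes. The nearest were MIR3661, a microRNA gene (distance 0.0224), PRPH, the intermediate filament protein peripherin of neurons (0.0319), RCN3, a calcium-binding protein of the endoplasmic reticulum (0.0355), CHRDL1, an antagonist of BMP signalling (0.0544), and TRPC4, a cation channel (0.0558). Their log2 differences lay between -1.20 and -1.08, as the measure of likeness fixes. With 4 arrays such likeness describes these arrays only.

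As to the arrays as a whole, the medians over all rows were 5.45 and 5.44 in TC-71 + TC-CD99neg EXOs and 5.42 and 5.38 in untreated TC-71. Of 8 genes that mark Ewing sarcoma lines, all had a row, with mean log2 levels between 6.60 and 11.1. NR0B1 was called lower (difference -0.62, adjusted p = 0.0137 from limma), and on adjusted p alone 3 of the 8 were higher and 2 lower, NR0B1 included, with 7 at an unadjusted p under 0.05. Of 7 measured markers of blood, endothelial and epithelial cells, 0 were called by limma and 0 had an unadjusted p under 0.05. Their mean levels lay between 4.54 and 7.11. The 4 arrays are labelled biological replicates, and the 2 arrays per group limit the precision of every value. An exact permutation test of 2 against 2 arrays cannot give a two-sided p below 0.333.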

How the data were processed

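Total RNA of TC-71 cells was hybridised to Affymetrix arrays. The authors summarized the array files with ExonRMA16 in GeneSpring, quantile-normalized them with no baseline transformation, and deposited log2 values of 67539 rows, which were used as deposited. The methods speak of transcript clusters, but 31569 row identifiers are of the kind for an exon junction (JUC) and 35970 of the kind for an exon part (PSR), so whether a row stands for a whole transcript cluster or a part of it is not settled here. The genome build is not given in the sources used here. Of the rows, 23383 carry 1 symbol, 1225 several and 42931 none in the platform annotation, and 2566 symbols were updated through RefSeq names. A gene with several rows was represented by the row with the highest mean.

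Groups were compared with limma 3.58.1 in R 4.3.3 (lmFit and eBayes, two-sided, Benjamini-Hochberg over all rows), and rows with a fold of 1.5 or more and an adjusted p of 0.05 or less were called. Residual degrees of freedom were 2, with 2.59 added by moderation. Without moderation 0 rows were called, against 14978 with an unadjusted p under 0.05. In simulated data of 67539 rows for this comparison, 64 of 100 rows changed 2-fold and 93 of 100 changed 4-fold were recovered, and 0 unchanged rows were called. The simulated noise was independent between rows and arrays. It therefore says nothing of calls that come from a shift shared by the rows of an array or group.

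The members and lists were chosen with earlier results of these data known. Named are all members, the called genes of a list (up to 4) or otherwise the 2 with the largest change, RefSeq neighbours of the snRNA genes and the 5 rows most like RNU11 and RNU12. The call on adjusted p alone, the second row of SART3, and the naming of RN7SK, RMRP, SF3B1, RNU12-2P, GEMIN7, RNU6-82 and ZRSR2 were chosen after values were seen. Promoter sequences are those of RefSeq (GRCh38.p14). Alternatives were the variance model, 4 scalings between arrays, a filter on dim rows, identical rows counted once, stricter thresholds, the mean of all rows of a gene, and each replicate left out. Of 13 measured reference genes used for 1 scaling, 7 had an unadjusted p under 0.05 from limma. On adjusted p alone 2 of them were higher and 1 lower, with log2 differences of -0.21 to 0.41. That scaling also gave each member the same standard error, 0.097.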

Additional observations from a re-analysis of the deposited data

How the results depend on the processing

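Under every alternative that kept all arrays, RNU11 and RNU12 were called and no other member was. The set was chosen by their signals in this same comparison, so these calls are a description. Nothing is read from the contrast with the other members. Only PDCD7 and SNRNP35 among the members, and the median over all rows, changed direction, and all 3 lie near 0. The number of rows called was 421 (257 higher and 164 lower) at a fold of 2 and 920 (577 higher and 343 lower) at an adjusted p of 0.01, and 1390 to 1832 with 1 array left out. Median centring gave median log2 differences of -0.13 over all members, -0.82 over the snRNA members and -0.13 over the protein members, each within 0.05 of the value reported. Near the fold limit the scaling decided calls. Median centring and centring on reference genes each called 1 major snRNA (RNU6-1) and 1 U1 or U2 protein (SNRPA1) lower and 0 other short noncoding RNAs. Median centring also called 1 gene of the transcription list (COIL) lower. A further quantile normalization called RNU6-1 and SF3B4, and 0 other short noncoding RNAs. Cyclic loess called 1 U1 or U2 protein (SF3A2) and 1 Sm or SF3b protein (SF3B4) higher, 0 other short noncoding RNAs and 0 rows of the snRNA families. The cause was not tested. With 1 array left out, the median over the snRNA members was -0.85 to -0.71, and the calls were 0 to 1 for the major snRNAs, the other short noncoding RNAs, the Sm and SF3b proteins, the transcription genes and the assembly genes, 0 to 2 for the U1 and U2 proteins and 1 to 6 for the snRNA families (1 lower and none higher without replicate A, 3 higher without replicate C). The mean of all rows of a gene gave no other value, since each measured member has 1 row. Leaving an array out leaves a group with 1, which is assumed to vary like the other. No paired analysis was possible because the replicate letters A and B of untreated cells are not shared with C and D of treated cells.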
